A study of Mus musculus with 144 samples.

Results

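The 48 cells described here were single cells of 5-week-old mice, 32 labelled aNSC and 16 labelled qNSC, out of 116 labelled single cells in the series. The short names aNSC and qNSC commonly stand for a neural stem cell that is active or quiescent. All had been sorted from the subventricular zone for expression of Tlx, the orphan nuclear receptor encoded by Nr2e1, and belonged to the libraries whose titles begin with A3. The 7 libraries with A3 titles that were labelled as filtered out and the 9 bulk pools of 5-week mice did not enter the comparison.

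The titles divide the cells into 3 sets. Set A3_1 held 8 aNSC and 4 qNSC, set A3_2 held 13 and 5, and set A3_3 held 11 and 7. The qNSC libraries numbered 17 before a pair from A3_3 (A3_3_S7 and A3_3_S8) was averaged and counted as 1 cell. Their log2(TPM + 1) values correlated with r = 0.9922, against 0.5756 for the next most similar pair of 5-week cells. The labels give the tissue, the age and the stage, and no treatment, strain, sex or animal. They state neither how a cell was assigned its stage nor what a title set stands for. If the stages were assigned from these same transcriptomes, the p-values below overstate the evidence for a difference, and if the sets are not separate animals they measure technical spread.

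Adult neural stem cells of the subventricular zone lie along the wall of the lateral ventricle and make neuroblasts that migrate to the olfactory bulb. In their quiescent state they resemble astrocytes, with genes for gap junctions, glutamate uptake and lipid transport. On activation they enter the cell cycle, raise protein synthesis and give rise to transit-amplifying cells and then to neuroblasts.

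The table gives TPM, a transcript abundance per length scaled to a fixed sum, so values can be set side by side between genes but the sequencing depth is unknown. The deposited columns of some 5-week cells fell short of that sum, with a range of 710525 to 999998 TPM. A gene was counted as detected in a cell at 1 TPM or more. The number of genes detected ranged from 1635 to 3842 in aNSC (median 2764) and from 1243 to 3703 in qNSC (median 2189), so complexity moved with the stage label, and its part in the differences below was not tested. Shares of cells are given with exact Clopper-Pearson 95% intervals, which cover counting error only.

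Labels and markers went together in most cells but not in all. The mean log2(TPM + 1) over a list of 50 astroglial and quiescence genes had a median of 6.15 in qNSC (range 0.35 to 8.72) and 1.66 in aNSC (0.29 to 4.44). In 4 of the 16 qNSC cells this mean was under 3, within the range of the aNSC cells. The library A3_2_S20 had an astroglial mean of 1.44 beside S-phase and G2/M list means of 4.40 and 4.17. The averaged pair A3_3_S7 and A3_3_S8 had 0.88, beside a G2/M mean of 6.2 and a mean of 7.12 over a list of neuroblast and cytoskeleton genes. The libraries A3_3_S9 and A3_3_S18 had 0.35 and 1.17, beside neuroblast means of 6.32 and 7.65. The nearest qNSC cell above the cut of 3, A3_1_S21, had 3.35, also within the range of the aNSC cells, beside an S-phase mean of 3.40. On the other side, the aNSC cell A3_1_S20 had an astroglial mean of 4.44, beside S-phase and G2/M means of 0.55 and 0.41. The cut was set after these values were seen, and the counts of called genes are given with and without the 4 cells.

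Stage was tested on the mean log2(TPM + 1) of each stage in each set, 6 values in all, with the set as a block in limma, two-sided, over 4421 genes. At a Benjamini-Hochberg adjusted p under 0.05, 27 genes (0.611% of those tested) differed between aNSC and qNSC. Of these, 18 (0.407%) were higher in aNSC and 9 (0.204%) were lower. The genes lower in aNSC were mainly astroglial ones, led by Gja1, Gstm1 and Aldoc. The genes higher in aNSC included those for 2 histone variants, 3 ribosomal proteins, the G1 kinase Cdk4 and the replication clamp Pcna. The 3 aNSC set means lay wholly above or wholly below the 3 qNSC set means for all 27.

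Many more genes leaned the same way without passing. Counts of list members with a higher mean, given below, are to be read beside this lean. Without adjustment 844 genes had a p under 0.05, 695 of them higher and 149 lower, and the median difference of all tested genes was 0.55 with a median standard error of 0.80. After quantile normalization, which moved that median to 0.04, the split was 29 higher and 42 lower, with 25 of the 27 genes shared. With TPM rescaled without mitochondrial, ribosomal RNA and Malat1 rows it was 1 higher and 6 lower. No gene passed without the cells of A3_2 or without those of A3_3, and none passed without 1 qNSC cell of A3_3 whose column summed to 710525 TPM. Without A3_1, 59 genes were higher and 30 lower. Without the 4 qNSC cells of low astroglial mean, 62 were higher and 25 lower, and for astroglial genes the choice of these cells fixes part of that. Without these cells Gja1 moved from -6.81 to -9.22, the astroglial median from -3.48 to -4.85, the ribosomal protein median from 2.56 to 3.44, the neuroblast and cytoskeleton median from 2.08 to 3.30 and that of all tested genes from 0.55 to 0.73. All 27 genes kept their sign under every setting tried.

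**Figure D1:**
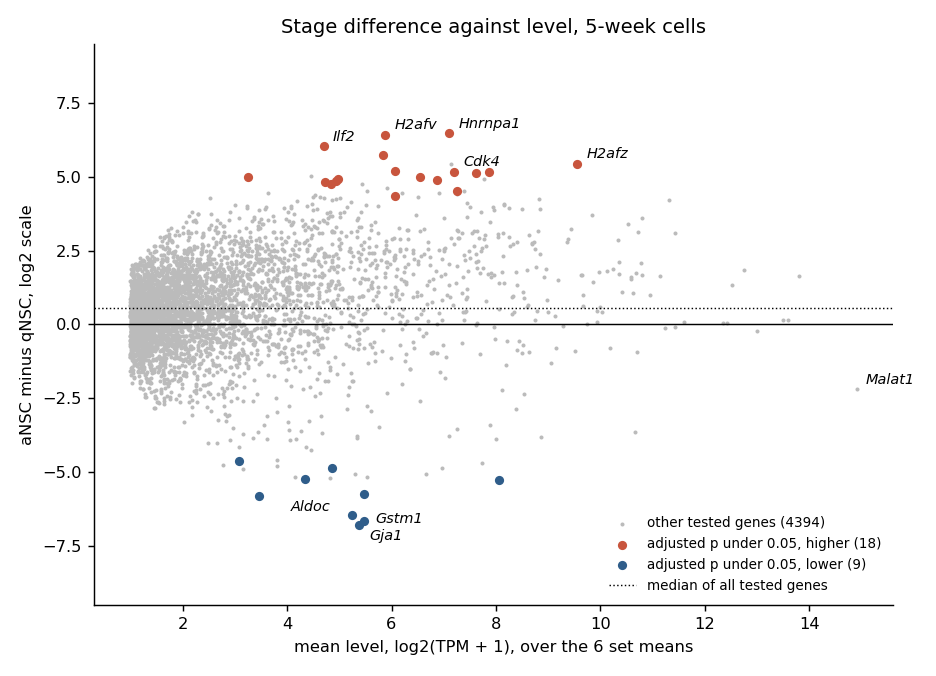
Difference between aNSC and qNSC on the log2(TPM + 1) scale (y axis) against the mean level over the 6 set means (x axis), 1 point per tested gene. The 18 genes called higher are in red, the 9 called lower in blue, and the dotted line is the median of all genes at 0.55; Malat1 lies at the highest level with a difference of -2.19.

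Gja1 (ENSMUSG00000050953) encodes connexin 43, the main gap junction protein of astroglia. Its set means in A3_1, A3_2 and A3_3 were 3.21, 1.44 and 1.23 in aNSC against 9.74, 9.38 and 7.18 in qNSC. It differed by -6.81 (SE 0.77, limma adjusted p = 0.0307). Single aNSC cells ranged from 0.10 to 281 TPM with a median of 0.83, and qNSC cells from 0.30 to 8421 TPM with a median of 1610. Every set mean of aNSC was below every set mean of qNSC, but the cells overlapped, since 12 of the 16 qNSC cells (75%, interval 47.6 to 92.7%) and 16 of the 32 aNSC cells (50.0%, 31.9 to 68.1%) had the gene at 1 TPM or more.

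Gstm1, a glutathione S-transferase, had set means of 2.33, 2.70 and 1.42 in aNSC against 8.42, 9.71 and 8.32 in qNSC. The difference was -6.67 (SE 0.72, limma adjusted p = 0.0307). Aldoc, the brain isoform of the glycolytic enzyme aldolase, had 2.86, 1.55 and 1.64 in aNSC against 9.74, 8.02 and 7.68 in qNSC, and differed by -6.46 (SE 0.72, limma adjusted p = 0.0307). Aldoc reached 1 TPM in 21 of 32 aNSC and 12 of 16 qNSC cells, with medians of 1.77 and 3920 TPM. It reached 10 TPM in 3 of 32 and 11 of 16 cells, and Gstm1 did so in 4 of 32 and 12 of 16. A single aNSC cell reached 3302 TPM of Aldoc.

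Other genes lower in aNSC had smaller differences. Clu, which encodes the secreted chaperone clusterin, differed by -5.74 and the calcium-binding S100a1 by -5.25 (adjusted p = 0.0442 for both). Mmd2 differed by -4.88 (0.0442). Tspan7, a tetraspanin of the cell surface, differed by -5.28 and the proteoglycan Cspg5 by -4.63 (0.0491 for both). Cspg5 was detected in 3 of 32 aNSC and 11 of 16 qNSC cells, whereas Tspan7 was detected in 27 of 32 and 15 of 16 (17 of 32 and 14 of 16 at 10 TPM).

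The astroglial list as a whole leaned to one side. Of its 50 members 44 were tested, and all 44 had a lower mean in aNSC, with 7 called. Of all tested genes 0.204% were called lower. Their median difference was -3.48, against 0.55 for all tested genes. Set means did not overlap for 24 of them, and the share of all tested genes lower without overlap was 4.34%. Well-known members missed the threshold. Slc1a3, the glutamate transporter GLAST, differed by -4.88 (adjusted p = 0.0528), and Apoe, the lipid carrier, by -5.16 (0.0519). Both had a higher mean in the aNSC of A3_1 (7.92 and 6.34) than in those of A3_3 (1.96 and 1.29). The list was compiled with earlier results of these cells known and is no independent evidence of its direction.

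Gfap and Aqp4, classic astrocyte markers, were scarce even in qNSC. Gfap reached 1 TPM in 2 of 16 qNSC cells (12.5%, interval 1.55 to 38.3%) and in 0 of 32 aNSC cells (upper limit 10.9%), and did not pass the filter on low values. Aqp4 was detected in 4 of 16 and 1 of 32 and differed by -1.53 (adjusted p = 0.429).

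**Figure D2:**
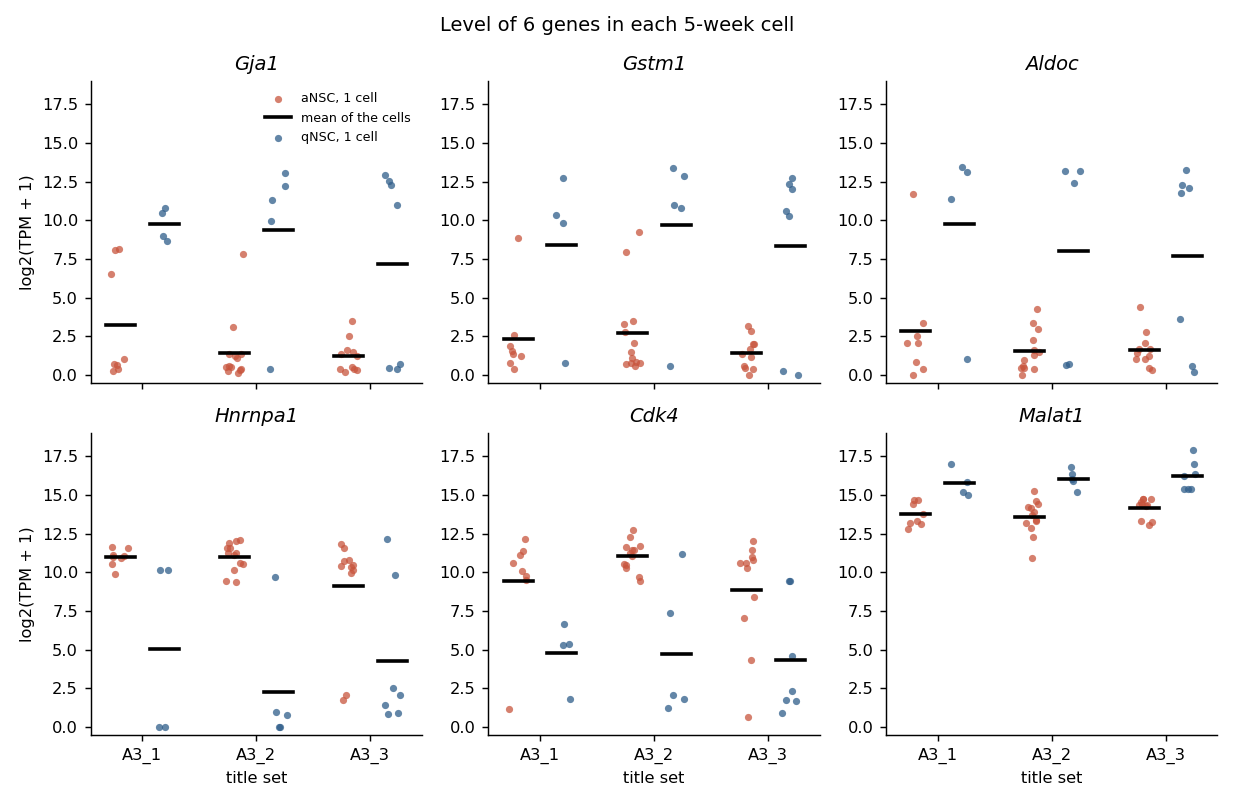
Level of 6 genes in each cell, log2(TPM + 1) on the y axis, with aNSC in red and qNSC in blue for each title set on the x axis; a black bar is the mean of the cells of a stage and set. Gja1, Gstm1 and Aldoc are bimodal in qNSC, Hnrnpa1 and Cdk4 are high in most aNSC cells, and Malat1 overlaps little between the stages.

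The genes higher in aNSC were led by regulators of RNA and chromatin. Hnrnpa1, a splicing regulator that binds nascent transcripts, had set means of 10.96, 10.99 and 9.10 in aNSC against 5.08, 2.29 and 4.24 in qNSC. Its difference was 6.48 (SE 0.91, limma adjusted p = 0.0442). All 32 aNSC cells and 8 of 16 qNSC cells (50.0%, interval 24.7 to 75.3%) had it at 1 TPM or more, with medians of 1830 and 1.34 TPM. Ilf2, a subunit of a complex that binds double-stranded RNA, differed by 6.04 (SE 0.76, adjusted p = 0.0407).

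Both called members of the chromatin list were variants of histone H2A. H2afv had set means of 8.81, 10.84 and 7.64 in aNSC against 2.71, 2.45 and 2.83 in qNSC, and differed by 6.43 (SE 0.88, limma adjusted p = 0.0442). H2afz had 11.90, 12.74 and 12.23 against 6.29, 5.52 and 8.70, a difference of 5.45 (SE 0.89, adjusted p = 0.0491). H2afz was detected in every cell of both stages, with a median of 8490 TPM in aNSC and 51.9 TPM in qNSC. Of the 30 tested chromatin and HMG genes, 29 had a higher mean in aNSC, 19 without overlap of the set means, and their median difference was 2.37. Of all tested genes, 16.0% were higher without overlap and 0.407% were called higher.

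Cdk4, the kinase that with D-type cyclins drives cells through G1, had set means of 9.46, 11.07 and 8.83 in aNSC against 4.80, 4.73 and 4.32 in qNSC. The difference was 5.17 (SE 0.77, limma adjusted p = 0.0442). Single aNSC cells ranged from 0.59 to 6678 TPM with a median of 1560, and qNSC cells from 0.91 to 2372 TPM with a median of 13.7. It was detected in 31 of 32 aNSC and 15 of 16 qNSC cells at 1 TPM, and in 30 of 32 and 8 of 16 at 10 TPM. Its close relative Cdk6 differed by 3.13 (adjusted p = 0.109) and the cyclin Ccnd2 by 3.98 (0.103), with set means of 8.93, 9.82 and 9.77 against 7.77, 4.47 and 4.33. Cdkn1b, the inhibitor p27 associated with quiescence, differed by 0.10 (SE 0.84, adjusted p = 0.968; -1.38 under quantile normalization) and was detected in 32 of 32 aNSC and 15 of 16 qNSC cells.

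Pcna, the sliding clamp of DNA polymerases, was the called member of the S-phase list. Its set means were 8.92, 8.68 and 4.70 in aNSC against 3.13, 3.38 and 1.00 in qNSC, and it differed by 4.93 (SE 0.77, limma adjusted p = 0.0491). The aNSC of A3_3 thus had a lower Pcna mean than those of the other sets, though still above every qNSC mean. Of 42 tested S-phase members 41 had a higher mean in aNSC and 21 did not overlap, with a median difference of 1.90. All 40 tested G2/M genes had a higher mean in aNSC, 29 without overlap, with a median of 2.53, and none was called. For both lists, the share of all tested genes higher without overlap was 16.0%.

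Among the G2/M genes, Spc25 of the kinetochore differed by 4.05 (adjusted p = 0.0918) and Cks1b, a binding partner of cyclin-dependent kinases, by 4.0 (0.0849). Top2a, the topoisomerase of mitotic chromosomes, differed by 3.81 (0.0656), and Racgap1, which acts in cytokinesis, by 3.64 (0.064). Mki67, the common proliferation marker, differed by 2.56 (0.133). It was detected in 17 of 32 aNSC cells (53.1%, interval 34.7 to 70.9%) and 3 of 16 qNSC cells (18.8%, 4.05 to 45.6%). Detection of Top2a and Cdk1 differed less at 1 TPM, a low level that does not show the difference in amount given for Top2a above. In A3_1, A3_2 and A3_3, Top2a was detected in 6 of 8, 11 of 13 and 5 of 11 aNSC and in 3 of 4, 3 of 5 and 4 of 7 qNSC. Cdk1 was detected in 4 of 8, 8 of 13 and 3 of 11 aNSC and in 0 of 4, 5 of 5 and 1 of 7 qNSC.

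A list mean of 2 for S-phase or G2/M genes, a cut set after the values were seen, was reached by 21 of 32 aNSC cells and 3 of 16 qNSC cells. By set these were 5 of 8, 11 of 13 and 5 of 11 aNSC in A3_1, A3_2 and A3_3, and 1 cell of each set among the qNSC. The larger of the 2 means lay within 0.5 of the cut in 4 aNSC cells and 1 qNSC cell. In the 11 aNSC and 13 qNSC cells below the cut the mean over the ribosomal protein list had a median of 6.70 in aNSC (range 5.87 to 8.13) and 3.01 in qNSC (1.84 to 7.43). The ranges overlapped, within each of the 3 sets too, and no test was made over these cells.

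Promoter sequences of cell-cycle genes are shown because members of these lists leaned together and are textbook targets of E2F factors (S phase) and of the CHR element (G2/M). Windows from 250 bases before to 50 after the transcript start were taken from RefSeq (GRCm38.p6), for 41 of 52 S-phase and 37 of 44 G2/M members. For S phase, the 3 genes with the largest differences among those without overlap that hold the letters TTCCCGC or TTGGCGC on either strand are printed, and for G2/M the first one that holds TTTGAA, 5′ to 3′ on the gene's strand, with the match in capitals. Rrm1, a subunit of ribonucleotide reductase (difference 3.93, adjusted p = 0.0563), lies on the plus strand with its window at chr7:102441445-102441744. The windows of the replication clamp loader genes Rfc3 (3.55, 0.0751; chr5:151651159-151651458) and Rfc4 (3.49, 0.0836; chr16:23127681-23127980) and of Spc25 (chr2:69206164-69206463) are on the minus strand. In Rfc3 and Rfc4 the capitals GCGGGAA are the reverse complement of TTCCCGC.
Rrm1: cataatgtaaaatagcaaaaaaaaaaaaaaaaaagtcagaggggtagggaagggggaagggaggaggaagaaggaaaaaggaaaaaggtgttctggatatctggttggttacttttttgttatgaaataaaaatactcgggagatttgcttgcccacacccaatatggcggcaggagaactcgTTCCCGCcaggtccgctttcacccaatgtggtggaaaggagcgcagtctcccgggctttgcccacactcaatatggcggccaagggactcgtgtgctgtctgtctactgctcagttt
Rfc3: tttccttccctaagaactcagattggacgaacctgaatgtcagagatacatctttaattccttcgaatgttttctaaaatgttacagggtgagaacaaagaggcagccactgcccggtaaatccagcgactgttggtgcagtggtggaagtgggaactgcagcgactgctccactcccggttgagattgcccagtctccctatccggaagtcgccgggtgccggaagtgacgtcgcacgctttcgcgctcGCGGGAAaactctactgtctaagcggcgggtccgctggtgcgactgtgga
Rfc4: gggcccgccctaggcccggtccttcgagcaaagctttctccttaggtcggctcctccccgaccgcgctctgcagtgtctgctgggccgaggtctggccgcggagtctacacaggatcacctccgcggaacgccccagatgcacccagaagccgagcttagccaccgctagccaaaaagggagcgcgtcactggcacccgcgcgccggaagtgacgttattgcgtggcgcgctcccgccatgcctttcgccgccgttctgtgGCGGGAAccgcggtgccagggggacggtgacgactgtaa
Spc25: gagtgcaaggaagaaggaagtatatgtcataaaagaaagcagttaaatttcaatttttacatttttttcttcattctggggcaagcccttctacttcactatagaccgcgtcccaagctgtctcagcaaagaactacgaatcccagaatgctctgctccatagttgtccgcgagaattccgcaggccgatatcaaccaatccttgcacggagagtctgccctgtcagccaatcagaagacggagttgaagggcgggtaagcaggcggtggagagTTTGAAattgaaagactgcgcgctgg

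Each of the 4 windows holds 1 match to its letters. The E2F letters were present in 22 of the 41 S-phase windows (53.7%), against 6.93% of 27025 promoter windows of the table and 5.13% of the 39 windows of astroglial genes. TTTGAA was present in 28 of the 37 G2/M windows (75.7%), against 18.1% of all windows and 5.13% of the astroglial ones. The letters CCAAT, often found beside the CHR element, were present in 30 of the 37 G2/M windows (81.1%), against 24 of the 41 S-phase windows (58.5%), 37.9% of all windows and 41.0% of the astroglial ones. The reverse complement of CCAAT shares the letters TTGG with TTGGCGC, so 1 stretch can match both, and no other pair of the motifs searched was compared for overlap. These matches describe sequence and show no binding.

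Ribosomal protein genes leaned to the aNSC side nearly as a whole. Of 82 tested members 81 had a higher mean in aNSC, and 3 were called, against 0.407% of all tested genes called higher. Their median difference was 2.56, against 0.55 for all tested genes. Set means did not overlap for 38 of them, and the share of all tested genes higher without overlap was 16.0%. Rps3a1, a protein of the small subunit, had set means of 10.69, 10.20 and 9.65 in aNSC against 5.89, 4.59 and 4.65 in qNSC, and differed by 5.14 (SE 0.72, limma adjusted p = 0.0442). Rps6, the small-subunit protein phosphorylated downstream of mTOR, differed by 4.84 and Rps27a, a fusion of ubiquitin and a ribosomal protein, by 4.35 (0.0491 for both). Rps6 was detected in 30 of 32 aNSC and 8 of 16 qNSC cells. The summed TPM of the list spread over 47947 to 113426 in aNSC (median 78287) and 6485 to 97751 in qNSC (median 47380), so the stages overlapped cell by cell.

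Hnrnpa1, H2afz and ribosomal protein genes have near-identical copies in the genome, and 2 of the 27 called rows were ribosomal pseudogenes, Rps16-ps2 (5.21) and Rpl31-ps8 (5.75). Values of such genes are uncertain where reads could have been split between copies. A further called row, with a difference of 4.98, had no symbol in the table used here.

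Other steps of gene expression followed the same side with few calls. Npm1, a nucleolar chaperone of ribosome assembly, differed by 4.51 (adjusted p = 0.0528), and 16 of 17 tested ribosome biogenesis genes had a higher mean in aNSC (median 2.42, none called). Eif4e, which binds the mRNA cap, differed by 4.09 (0.059), and 30 of 32 translation factors had a higher mean in aNSC (median 1.62, none called). Splicing and hnRNP genes had 45 of 46 (median 1.39, Hnrnpa1 called) and proteasome genes 29 of 30 (median 1.46, none called). Without overlap of the set means, 7 of 17 ribosome biogenesis, 10 of 32 translation, 13 of 46 splicing and 7 of 30 proteasome genes were higher. The share of all tested genes was 16.0%. Under quantile normalization the medians of these lists, in the same order, were 1.76, 1.16, 0.84 and 1.06. Hsp90aa1, the stress-inducible cytosolic HSP90, was called at 4.52 (SE 0.72, limma adjusted p = 0.0491). Of 27 tested chaperone genes 20 had a higher mean in aNSC, 5 of them without overlap. Their median of 1.37 fell to 0.55 under quantile normalization.

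The remaining called genes on the aNSC side came from several groups. Atp5f1, a stalk subunit of ATP synthase, differed by 4.89 (SE 0.72, adjusted p = 0.0442), with set means of 9.95, 9.02 and 8.99 against 5.13, 4.54 and 3.63. It was the called member among 75 tested oxidative phosphorylation genes, of which 67 had a higher mean in aNSC, with a median of 1.07 that was 0.57 under quantile normalization. Of the 75 genes 12 were higher without overlap, a share equal to the 16.0% of all tested genes. Jpt1 differed by 5.15 and Mrfap1 by 5.00 (0.0442 for both). Mrfap1 was detected in 25 of 32 aNSC and 4 of 16 qNSC cells. Tsc22d1, a leucine zipper protein, differed by 4.85 and Arpp19, an inhibitor of the phosphatase PP2A at mitotic entry, by 4.74 (0.0491 for both).

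Energy metabolism on the qNSC side was less uniform. Of 13 tested glycolysis and lactate genes 9 had a lower mean in aNSC, with a median of -0.45 (-0.85 under quantile normalization) and Aldoc called. Fatty acid oxidation genes had 9 of 14 lower (median -0.69, or -1.21 under quantile normalization, none called), led by Acsl3 (-3.03, adjusted p = 0.218), an enzyme that activates long-chain fatty acids. Lipid and sterol genes had 9 of 17 lower (median -0.36, or -0.87 under quantile normalization, none called), with Apoe at one end and Dhcr7, a late enzyme of cholesterol synthesis, at 2.26 (0.166) at the other. Lysosomal genes had 9 of 10 lower (median -1.03, none called), with the tetraspanin Cd63 at -3.78 (0.13). In the order given, 2 of 13, 2 of 14, 3 of 17 and 2 of 10 members were lower without overlap of the set means. The share of all tested genes was 4.34%.

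**Figure D3:**
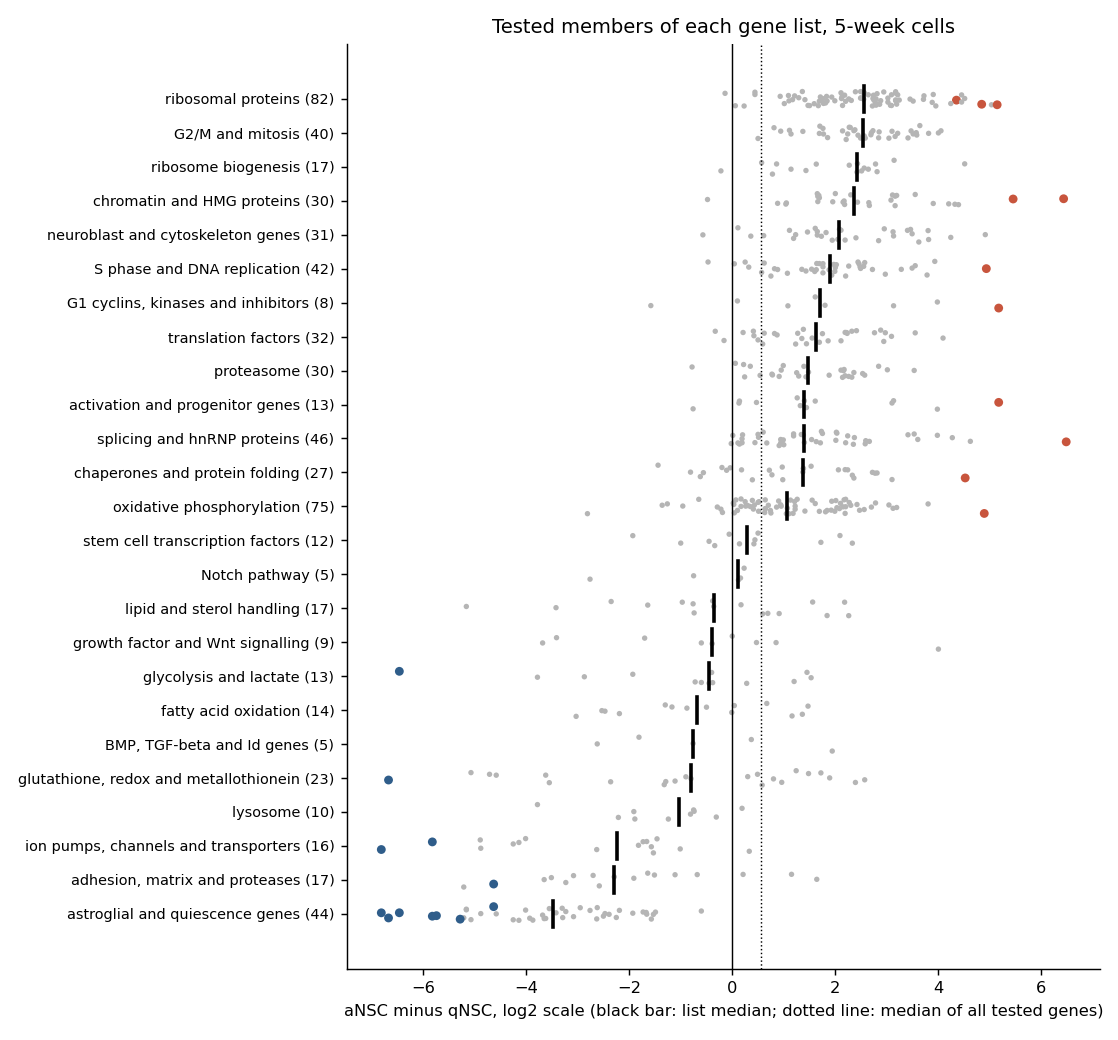
Differences between aNSC and qNSC (x axis, log2 scale) of the tested members of each gene list with at least 5 tested members (y axis, number tested in brackets). Red and blue points passed the test, a black bar is the list median, and the dotted line is the median of all tested genes; the lists run from astroglial genes at -3.48 to ribosomal protein genes at 2.56.

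Signalling genes that mark stem cell states gave few tested members and no call. Of the 18 Notch pathway genes 5 were tested, with a median of 0.12 that was -0.43 under quantile normalization. Notch2, a receptor linked with quiescence, had set means of 5.18, 1.47 and 1.29 in aNSC against 7.16, 4.68 and 4.39 in qNSC and differed by -2.76 (adjusted p = 0.11). The Notch target Hes1 was detected in 2 of 32 aNSC and 3 of 16 qNSC cells. Another target, Hes5, was detected in 4 of 32 aNSC and 0 of 16 qNSC cells (upper limit 20.6%). Of 23 BMP, TGF-beta and Id genes 5 were tested, with Id3 at -2.62 (0.262). Of 36 growth factor and Wnt genes 9 were tested. The related secreted factors Mdk and Ptn lay on opposite sides, with Mdk at 4.0 and Ptn at -3.68 (0.064 for both). Stem cell transcription factors had a median of 0.28 over 12 tested (-0.36 under quantile normalization), with Sox9 at -1.93 (0.299) and Nfix at 2.33 (0.173).

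Nr2e1, the gene the cells were sorted for, was not called between the stages. It had set means of 6.66, 4.06 and 0.63 in aNSC against 7.01, 1.12 and 1.73 in qNSC. The stage difference was 0.50 (SE 0.94, adjusted p = 0.821; -0.52 under quantile normalization). Among aNSC cells 16 of 32 had Nr2e1 at 1 TPM or more (50.0%, 31.9 to 68.1%), and among qNSC cells 6 of 16 (37.5%, 15.2 to 64.6%). The row named gfp differed by 0.89 (SE 0.74, adjusted p = 0.57) and was detected in 16 of 32 and 4 of 16 cells. Both were higher in A3_1 than in A3_3 within either stage.

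Egfr, the receptor used to sort active stem cells, differed by 0.47 (SE 0.72, adjusted p = 0.775) and reached 1 TPM in 21.9% of aNSC cells (7 of 32, interval 9.28 to 40.0%) and 12.5% of qNSC cells (2 of 16, 1.55 to 38.3%).

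Neuroblast and cytoskeleton genes leaned to aNSC and varied between sets. Of 31 tested members 30 had a higher mean in aNSC, 9 without overlap, with a median of 2.08 and no call. Among all tested genes 16.0% were higher without overlap. Tmsb10, an actin-binding thymosin, differed by 4.91 (adjusted p = 0.0519), with set means of 7.49, 11.12 and 12.07 in aNSC against 4.02, 4.39 and 7.53 in qNSC. Tubb3, the neuronal tubulin, had 2.22, 8.47 and 9.49 against 0.17, 1.45 and 7.14 (difference 3.81, adjusted p = 0.127). Dcx, a microtubule protein of migrating neuroblasts, had 0.07, 3.92 and 6.06 against 0.11, 1.05 and 2.57 (2.11, 0.252). By cell, Dcx was detected in 0 of 8, 7 of 13 and 9 of 11 aNSC and in 0 of 4, 1 of 5 and 3 of 7 qNSC.

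The same order of sets was present in single-cell list means. The neuroblast mean exceeded the astroglial mean in 4 of 8 aNSC cells of A3_1 and in all 13 and 11 of A3_2 and A3_3. Among qNSC cells it did so in 0 of 4, 1 of 5 and 3 of 7. The average aNSC astroglial mean was 3.24 in A3_1, 1.63 in A3_2 and 1.22 in A3_3, and the average neuroblast mean was 3.29, 4.98 and 6.13. Cells of 1 label therefore covered much of the range between the means of the 2 lists, and the sets differed in where their cells lay on it. The neuroblast list also holds cytoskeleton genes. Dcx was detected in 0 of 8 aNSC of A3_1, so a high mean of that list does not by itself name a neuroblast.

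**Figure D4:**
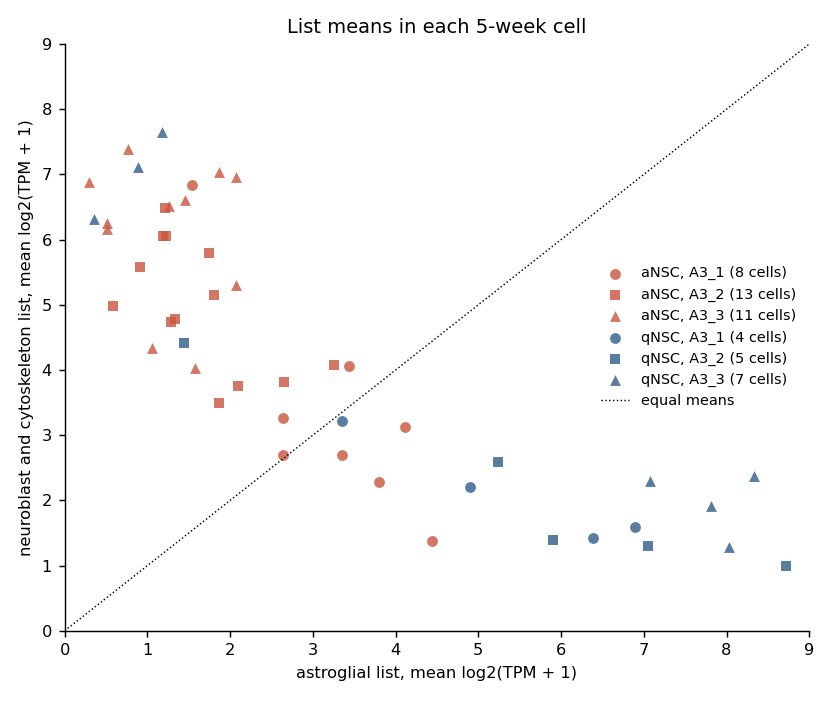
Mean log2(TPM + 1) of the astroglial list (x axis) and of the neuroblast and cytoskeleton list (y axis) in each of the 48 cells, by stage (colour) and title set (shape), with a dotted line of equal means. Of the qNSC cells 12 lie below the line and 4 above it, and of the aNSC cells 28 lie above it.

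Bulk pools of 500 cells from the same title sets, 3 per set, gave the same order for the neuroblast and cytoskeleton list and for Dcx. The list mean lay between 6.10 and 6.28 in the A3_1 pools, 7.95 and 8.02 in A3_2 and 8.53 and 8.71 in A3_3. Dcx lay between 12 and 22.5 TPM in the A3_1 pools, 93.3 and 125 TPM in A3_2 and 241 and 257 TPM in A3_3, without overlap. Stmn2, a tubulin-binding protein of young neurons, lay between 11.2 and 18.5, 219 and 261, and 511 and 653 TPM in the pools. In the cells Stmn2 did not share this order. It was detected in 3 of 8, 3 of 13 and 10 of 11 aNSC and in 0 of 4, 0 of 5 and 5 of 7 qNSC. In the pools Nr2e1 ran the other way, at 399 to 536, 194 to 288 and 66.7 to 105 TPM, as did gfp at 769 to 1506, 550 to 924 and 158 to 320 TPM. The astroglial list mean did not fall from A3_1 to A3_3 in bulk as it did in the aNSC cells. It lay between 7.65 and 7.93 in the A3_1 pools, 7.71 and 7.97 in A3_2 and 8.17 and 8.26 in A3_3. In the qNSC cells of these sets its average was 5.38, 5.67 and 4.81, and its median 5.65, 5.90 and 7.08. Markers of oligodendrocyte precursors also moved with the set in bulk, with list means of 0.53 to 0.90 in A3_1 and A3_2 and 2.90 to 3.74 in A3_3, but were near 0 in the cells. In bulk, fewer cells of a type and less RNA per cell cannot be told apart, and the part of the set in the stage differences was not tested beyond the block and the left-out sets.

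Most listed markers of other brain cell types were at 0 in every cell, except those of oligodendrocytes and neurons. Single cells held sums of up to 4658 TPM of such lists. The summed TPM of 12 microglial genes was 0 in the median cell of both stages and reached 324 in aNSC and 160 in qNSC, and 9 of the 12, among them C1qa, Tmem119 and P2ry12, were at 0 in all 48 cells. Of 14 endothelial and mural genes 12 were at 0 in every cell, among them Cldn5, Pecam1 and Flt1, and the sum reached 0.83 TPM in aNSC and 400 TPM in qNSC. Of 20 ciliary and ependymal genes 13, including Foxj1, were at 0, and the sum reached 575 and 4658 TPM. For 10 choroid plexus genes, 7 of them at 0, the sum reached 150 and 172 TPM. Of 9 matched oligodendrocyte precursor genes 5, including Sox10 and Cspg4, were at 0 (highest sums 151 and 0.17 TPM). The 12 oligodendrocyte genes reached 442 and 709 TPM, with 5 of them, including Mog and Mag, at 0. The 17 neuronal genes reached 1564 and 1554 TPM, with 6 of them, including Slc17a7, at 0. Of 6 matched erythroid genes 4 were at 0, with highest sums of 876 TPM in aNSC and 0 in qNSC.

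Few interferon and immediate early genes passed the filter on low values. The 19 interferon genes had summed TPM of 0 to 1036 in aNSC (median 2.92) and 0 to 3599 in qNSC (median 344), with 2 tested and none called. The 21 immediate early and dissociation stress genes had 38.2 to 3359 TPM in aNSC (median 1340) and 0.94 to 3258 in qNSC (median 89.1), with 4 tested and Hsp90aa1 called.

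Malat1, a nuclear long non-coding RNA, came closest to separating the labels cell by cell. As a percent of a full TPM sum, it was at 0.192 to 3.84% in aNSC (median 1.665%) and 3.23 to 24.8% in qNSC (median 6.345%). These percents are not of the cell's own column sum, which was lower in some cells. Of the aNSC cells 1 lay above the lowest qNSC cell, and 3 qNSC cells lay below the highest aNSC cell. Of all 512 pairs of 1 aNSC and 1 qNSC cell, the qNSC cell was higher in 99.4%. The 4 qNSC cells with a low astroglial mean were on the qNSC side here, at 4.24 to 6.05%. The gene was not called, since its difference was -2.19 (SE 0.71, adjusted p = 0.167). The number of genes detected also moved with the label, and its part in this difference was not tested.

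No other tested gene came near that value. The next on the qNSC side was Strip2, higher in aNSC in 13.2% of pairs, and on the aNSC side Hnrnpa1 was higher in 89.3%, H2afv in 88.6% and Cdk4 in 87.9%. Gja1, with the largest difference of set means, was higher in aNSC in 17.1% of pairs. These shares were ranked after the values were seen, and cells are not replicates, so they carry no test.

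The stage difference at 5 weeks was set beside those of 7-week and 7-month cells, which came from other libraries (16 aNSC and 23 qNSC at 7 weeks, 10 and 19 at 7 months). The test was on the difference between ages itself, over the 9 title sets, in limma. Of 4206 genes tested, 0 (0.0%) passed for 5 weeks against 7 weeks and 0 (0.0%) for 5 weeks against 7 months. Before adjustment, 208 (4.95%) and 280 (6.66%) had a p under 0.05, and the smallest adjusted p values were 0.808 and 0.521. A p that misses the threshold does not show that the ages were alike. Age and the title prefix of the libraries cannot be told apart.

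All 27 genes called at 5 weeks had the same sign at 7 weeks, where 75.1% of all tested genes did, and 25 had it at 7 months, where 67.6% did. Gstm1 was the most alike, at -6.67, -6.51 and -6.72 at 5 weeks, 7 weeks and 7 months. Pcna had 4.93, 5.02 and 5.77 and Rps6 had 4.84, 5.73 and 5.36. Aldoc differed by -6.46, -9.05 and -7.71 and Clu by -5.74, -8.96 and -7.58, with the 5-week value nearest to 0 in both. Ilf2 had 6.04, 5.59 and 1.90, and H2afv 6.43, 5.62 and 1.90.

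The 2 genes whose sign was not shared at 7 months were Atp5f1, at -1.27 there, and Tsc22d1, at -1.68. For Tsc22d1 the stage difference at 5 weeks exceeded that at 7 months by 6.53 (SE 1.49, adjusted p = 0.521). The smallest p values for 5 weeks against 7 weeks belonged to Rps18, a ribosomal protein gene with 1.10 at 5 weeks and 6.44 at 7 weeks, and to Mapre2, a microtubule end-binding protein with -1.60 and 4.73 (adjusted p = 0.808 for both). For 5 weeks against 7 months Herpud1, a gene of the endoplasmic reticulum stress response, had 2.91 and -3.19 (adjusted p = 0.521).

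**Figure D5:**
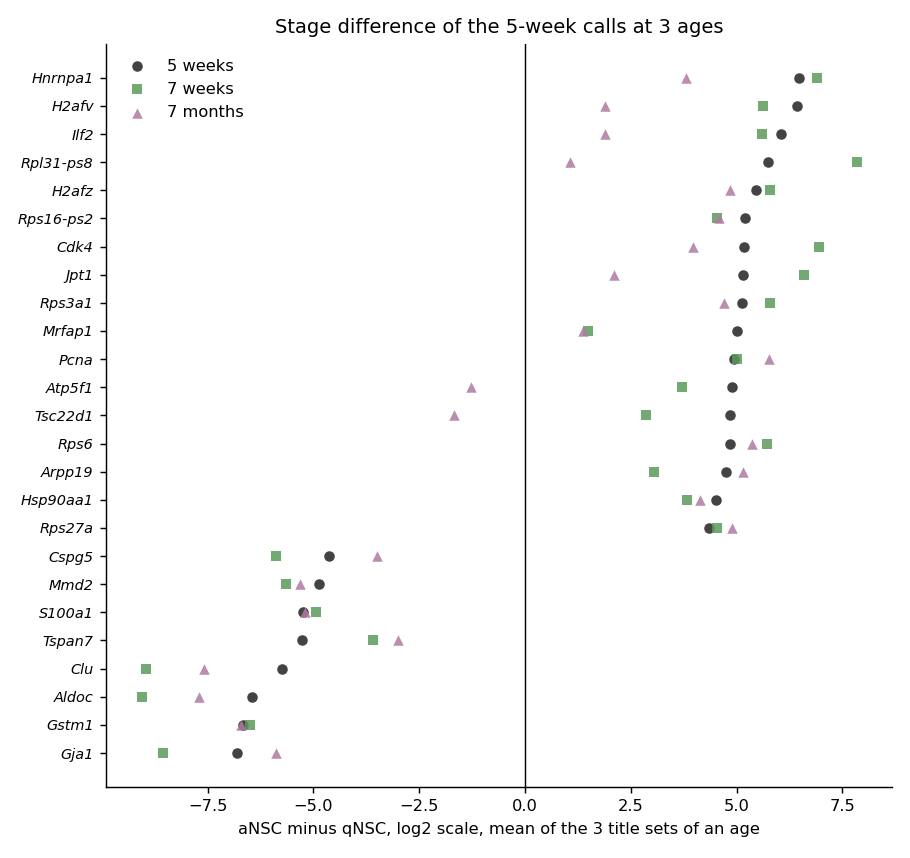
Difference between aNSC and qNSC (x axis, log2 scale, mean of the 3 title sets of an age) at 5 weeks, 7 weeks and 7 months for 25 of the genes called at 5 weeks (y axis). Atp5f1 and Tsc22d1 lie left of 0 at 7 months, and all other points keep the side of the 5-week value.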

How the data were processed

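RNA of single cells and of bulk pools of 500 cells was measured. Per the labels' protocols, cDNA came from the SMARTer Ultra Low Input kit, and NEBNext Ultra libraries were built from it after shearing. The values the authors deposited are TPM, made with RSEM 1.2.15 on build mm9 per the submitters' processing notes. The annotation, aligner and filters are not given in the sources used here. The table held 37621 rows and 144 columns. Symbols matched 32897 rows, 4723 rows stayed without one (median 1.758% of the TPM of a 5-week cell), and 1 row was named gfp. Columns of 5-week cells summed to 710525 to 999998, and values were used as deposited. TPM keeps no counts, so depth is unknown.

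The stage test used limma (version 3.58.1, R 4.3.3) on the mean log2(TPM + 1) of each stage in each title set, with the set as a block, on genes whose mean over the 6 values was at least 1. The difference between ages was tested on the 9 per-set stage differences. P-values were two-sided and adjusted by Benjamini-Hochberg over all tested genes. On simulated data with 200 of 4421 genes changed by 4, 6 or 8 on the log2 scale, the stage test recovered 194, 200 and 200, with 23, 6 and 6 false calls. The simulated set means had independent normal noise and as many rises as falls, and cells were not simulated. These figures therefore check the code and do not give the power of the test on the real cells. Gene lists (35) were described by counts and medians without a test. Descriptions used Python 3.11.15 with numpy 2.4.6, pandas 2.3.3, scipy 1.17.1 and matplotlib 3.10.9.

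The cells, lists and promoter motifs were chosen with earlier results of these data known. Named genes were the 12 largest differences in each direction among called genes with a symbol and the same sign in 3 of 3 sets, leaving out predicted genes and pseudogenes, up to 4 members of each list, a fixed panel, and 3 genes per direction for the ages. Strip2, Stmn2, Rrm1, Rfc3, Rfc4, Rps16-ps2, Rpl31-ps8 and Arpp19 were named outside this rule, after their values were seen. Some genes that the rule names are not reported here. Alternatives were the scale of the set value, pseudocount, filter, normalization, block, left-out sets and cells, the handling of the near-identical pair, and a detection level of 10 TPM. The settings without the 4 qNSC cells and without the cell of the lowest sum were added after the data were seen.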

Additional observations from a re-analysis of the deposited data

Results flagged for a closer look

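In the groups of 4 to 10 cells that share a stage and a title set (the qNSC of each set and the aNSC of A3_1), 28 checks were made of whether 1 cell stood far from the others, and 6 did, all in qNSC. Chance marks about 1 group in 20. In A3_1, the qNSC cell A3_1_S21 had a mean log2(TPM + 1) of 3.40 over the S-phase list, against 0.73 for the nearest of the other 3. In A3_2, the qNSC cell A3_2_S20 had 4.40 over the same list, against 0.81. In A3_3, the averaged pair A3_3_S7 and A3_3_S8 had 1.77 against 0.77 for the S-phase list, 6.2 against 1.2 for the G2/M list, and 3703 genes detected against 2386. In the same set, Malat1 was at 24.8% of a full TPM sum in A3_3_S21, against 12.9% in the nearest other qNSC cell.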

How the results depend on the processing

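Given as genes higher and lower in aNSC, the 18 and 9 called at 5 weeks became 72 and 30 with a filter at a mean of 3, 29 and 42 after quantile normalization, 1 and 6 after rescaling without mitochondrial, ribosomal RNA and Malat1 rows, and 62 and 25 without the 4 qNSC cells. They became 0 and 0 with the log2 of the mean TPM, a pseudocount of 0.1, no filter, the median over cells, the near-identical pair kept as 2 cells, without the 10% of cells with the fewest genes, and without the cell with the lowest column sum. Among these the smallest adjusted p lay between 0.0546 and 0.284, and between 250 and 1399 genes had an unadjusted p under 0.05. Leaving out 1 title set gave 0 to 59 higher and 0 to 30 lower. With the pair left out there were 19 and 11. The difference between ages was refitted under fewer settings. These were the log2 of the mean TPM, a filter at a mean of 3, quantile normalization, rescaling, no block and 1 of the A3 title sets left out. None of them changed the count of 0 genes differing between ages.

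Without the replicate block 27 genes were higher and 9 lower, 22 of them shared with the 27. Deviations of the same-set aNSC and qNSC means correlated at 0.148, 0.0384 and 0.239 for A3_1, A3_2 and A3_3, so the set number does not by itself pair the means, although each aNSC mean correlated best with the qNSC mean of its own set.

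Of 998 named-gene values under alternatives, 10 changed sign, in 2 genes that were not called. Cdkn1b became -0.08 with the log2 of the mean TPM, -1.38 after quantile normalization, -0.04 after rescaling, -0.40 to 0.99 with 1 title set left out (-0.30 without A3_1), -0.03 with the pair kept as 2 cells and -0.01 with the median. Nr2e1 became -0.37 with the log2 of the mean TPM, -0.52 after quantile normalization and -0.72 to 1.30 with 1 title set left out (-0.72 without A3_2). The cause was not tested. With 4, 5 and 7 qNSC cells in the 3 sets, a single cell weighs heavily in a mean, and TPM gives no depth by which to weigh cells.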

Other observations

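Gene groups that share members with the astroglial list leaned to the qNSC side as well. Of 16 tested genes for ion pumps, channels and transporters 15 had a lower mean in aNSC, 9 without overlap of the set means, with a median difference of -2.23 and 2 called, Gja1 among them. Of 17 tested adhesion, matrix and protease genes 14 had a lower mean in aNSC, 6 without overlap, with a median of -2.29 and Cspg5 called. Glutathione, redox and metallothionein genes were divided, with 12 of 23 lower, 4 lower and 4 higher without overlap, a median of -0.80 and Gstm1 called. Of all tested genes, 0.204% were called lower, and 4.34% were lower and 16.0% higher without overlap. The 4 higher genes of the glutathione list were near the latter share.

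On the aNSC side, 12 of 13 tested activation and progenitor genes (median 1.40) and 7 of 8 tested genes for G1 cyclins, kinases and inhibitors (median 1.70) had a higher mean, and Cdk4 was the called member of both lists. Without overlap of the set means 3 of the 13 and 3 of the 8 were higher, against 16.0% of all tested genes. Few genes for differentiated cells could be tested. Rarres2, the ciliary and ependymal list's tested member, differed by -2.83 (SE 1.28, limma adjusted p = 0.279), with set means of 0.00, 0.00 and 0.12 in aNSC against 0.00, 7.03 and 1.58 in qNSC. It was detected in 1 of 32 aNSC and 5 of 16 qNSC cells, whereas Foxj1, the factor that defines ciliated cells, was at 0 in every cell. Snap25, a neuronal synapse protein, differed by 0.68 (SE 0.74, adjusted p = 0.669).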
